A study of Mus musculus with 12 samples.

Results

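Untreated pancreatic tumours were examined for what they express and for how far they differ from each other. They are the 4 tumours of the series labelled Vehicle, Vehicle 1 to Vehicle 4, taken by their treatment label and read on 6 of the 12 Illumina BeadArrays of the series, which holds 9 tumours in all. The hosts were female adult C57BL/6J mice carrying orthotopic pancreatic ductal adenocarcinomas, which grew from surgically implanted syngeneic cell lines in Matrigel. Once a tumour measured about 1 cm, the animal ate chow with vehicle for 8 days. The mice were perfused with heparinised saline, and the tumours were digested with collagenase before RNA extraction. The driver mutations of the cell lines, how many lines were used and which tumour came from which line are not stated in the labels. Implanted lines are a limited model, because neither precursor lesions nor a tumour's own slow growth in place is part of them.

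A pancreatic ductal adenocarcinoma is a mixture. Its carcinoma cells carry keratins and mucins and sit in a dense stroma of collagen, fibroblasts and contractile cells, with many macrophages, some neutrophils and usually few lymphocytes. Next to it, or trapped inside it, lies pancreas whose acinar cells make digestive enzymes in very large amounts. Interferon gamma, released by T cells and natural killer cells, switches on guanylate-binding proteins, the immunoproteasome, chemokines that attract T cells, and the MHC molecules that present peptides. In a bulk sample, fewer cells of a type and less RNA per cell cannot be told apart.

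Levels are normalised log2 signals, and 1 unit is a doubling. Values are given in the order Vehicle 1, 2, 3 and 4, and the range of a gene or list is its highest minus its lowest tumour. Vehicle 1 and Vehicle 3 were each hybridised once more, and their values are means of 2 arrays, whereas Vehicle 2 and Vehicle 4 have a single array each. Probes differ in how brightly they report the same amount of RNA, so the level of one gene's probe was not set against that of another as an amount. With 1 group there is no test between groups, and no p-value is given. The labels do not say that each tumour came from its own mouse.

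Of 45281 probes, between 16282 and 17847 were detected per array, with a detection p-value under 0.05. Of 19057 genes with a named probe, 8599 (45.1%) were detected in all 4 tumours, 590 in 3, 577 in 2 and 1108 in 1. A further 8183 were detected in none of the tumours on all of its arrays, and 7164 (37.6%) were on no Vehicle array. The 3 first arrays of Vehicle 1, 2 and 3 were dimmer, with mean intensities from 142 to 163, and the repeats of Vehicle 1 and 3 and the array of Vehicle 4 were brighter, from 224 to 316. Vehicle 2 is thus read only on a dimmer array and Vehicle 4 only on a brighter one. Values from dimmer or from brighter arrays alone are given for the acinar, Reg, carcinoma, neutrophil, mast cell, MHC class II and cytotoxic lists. In the other results in which Vehicle 2 or Vehicle 4 is extreme, tumour and array brightness were not separated.

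The tumours resembled each other closely across genes. Over the 8599 genes the correlation between tumours ran from r = 0.962 for Vehicle 1 and 2 to 0.984 for Vehicle 2 and 3, while the repeats gave 0.993 for Vehicle 1 and 0.989 for Vehicle 3. These are descriptions across genes of one platform, and genes are not independent replicates. The median SD between tumours was 0.197, with the 10th and 90th percentiles at 0.0848 and 0.430, and the median range was 0.438. Repeat arrays differed by a median of 0.126 for Vehicle 1 and 0.157 for Vehicle 3. A range over 1, a doubling between the extreme tumours, was found in 804 genes, which is 9.35% of the genes detected in all 4, and a range over 2 in 111 genes (1.29%). In 779 of the 804, both pairs of repeat arrays differed by under 1. The repeats themselves differed by over 1 in 5 genes for Vehicle 1 and in 59 genes for Vehicle 3. The plot of differences between pairs shows both kinds of distance on one scale.

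**Figure D1:**
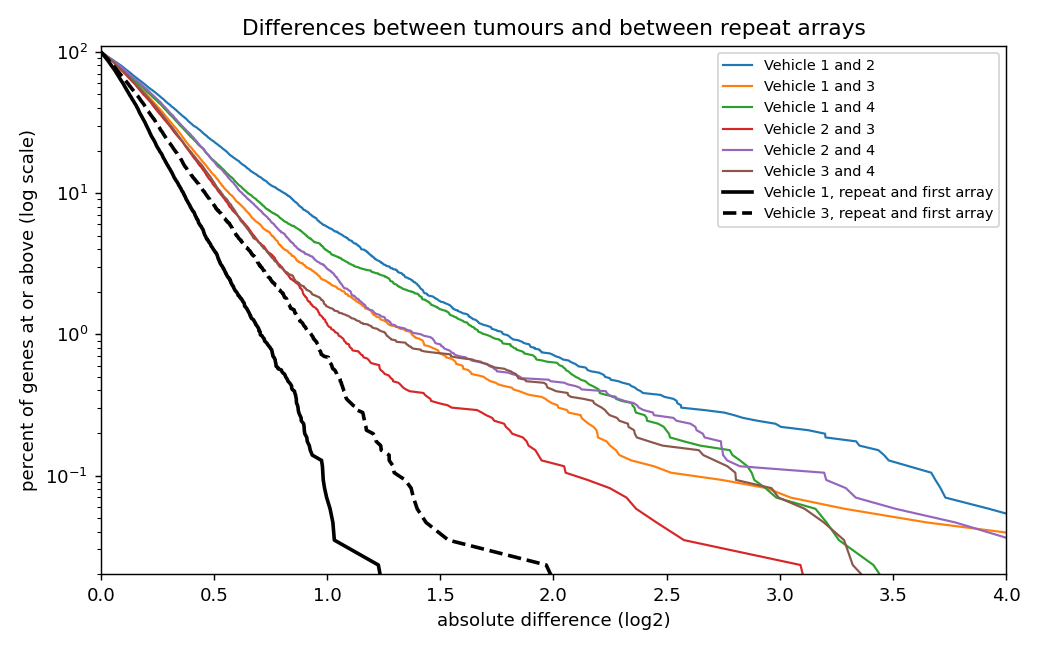
For each pair, the share of the 8599 genes (vertical axis, percent, log scale) whose absolute difference is at least the value on the horizontal axis (log2). Coloured lines are the 6 pairs of tumours and black lines the repeat arrays of Vehicle 1 (solid) and Vehicle 3 (dashed). At a difference of 1 the tumour pairs lie between 1.19% and 5.78% of genes, and the repeats at 0.0581% and 0.686%.

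The brightest named genes were those of protein synthesis and the cytoskeleton. The first 20 by mean signal hold the ribosomal protein genes Rps12, Rplp1, Rps9, Rps2, Rps29, Rpl9, Rpl38, Rpl41, Rpl37 and Rps19, the elongation factors Eef1a1 and Eef1g, and the cytoskeletal Actb and Tuba1b. With them stood Fth1, which stores iron, Mt1, a metallothionein, Anxa2, a membrane-binding annexin, the ubiquitin pseudogene Ubb-ps, the histone gene H2ac24 and Amy2a5, a pancreatic amylase. Ubb-ps, the histone and several ribosomal genes have near-identical copies that such probes may not separate. Of the 20 brightest probes on the arrays, 10 had no single gene symbol and are not described. Rps12 was at 14.47, 14.48, 14.50 and 14.52, and Actb at 14.29, 14.44, 14.28 and 14.24. The Amy2a5 probe of highest mean was at 13.98, 14.02, 14.07 and 14.19. The widest of the 20 was Rps19, with 13.88, 14.21, 14.17 and 14.22, a range of 0.34.

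Steadiest among genes above the median level were Nacc2, Ilf2, Rap1gap2, Slco2a1, Slc35e3, Sh3pxd2b, Atraid, Vps35l, Rps12 and Pwwp3a. Nacc2, a transcriptional repressor, was at 8.45, 8.45, 8.45 and 8.44, and Ilf2, an RNA-binding protein gene, at 10.14, 10.15, 10.15 and 10.14. Repeat arrays of Vehicle 1 and 3 differed by -0.07 and -0.16 for Nacc2 and by -0.19 and -0.43 for Slco2a1, more than the ranges between tumours of 0.01 and 0.02, so the order of these genes is within array error. Among the ribosomal protein genes, 0 of 16 members detected in all 4 had a range over 1, and the list mean had a range of 0.15. The list means of housekeeping genes and of oxidative phosphorylation had ranges of 0.10 and 0.16. Single members were less even: Tfrc, the transferrin receptor often used as a housekeeping gene, was at 9.40, 8.68, 8.60 and 8.19.

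For 54 lists of cell types and pathways, 895 distinct genes were looked for, 802 had a named probe and 551 were detected in all 4 tumours. The mean over the detected members was taken for the 49 lists with at least 3. The median range of a list mean was 0.54. The widest were acinar enzymes (2.48), erythroid genes (2.07), neutrophil genes (1.81), Reg and injury genes (1.55), MHC class II (1.47), interferon gamma targets (1.15) and the mast cell and eosinophil list (1.11). In repeat arrays of one tumour, the means of these 7 lists differed by at most 0.18. Among the genes, Vehicle 1 stood apart from its nearest tumour by over 1 upward in 51 and downward in 67, Vehicle 4 in 5 and 43, Vehicle 2 in 5 and 19, and Vehicle 3 in 5 and 0.

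**Figure D2:**
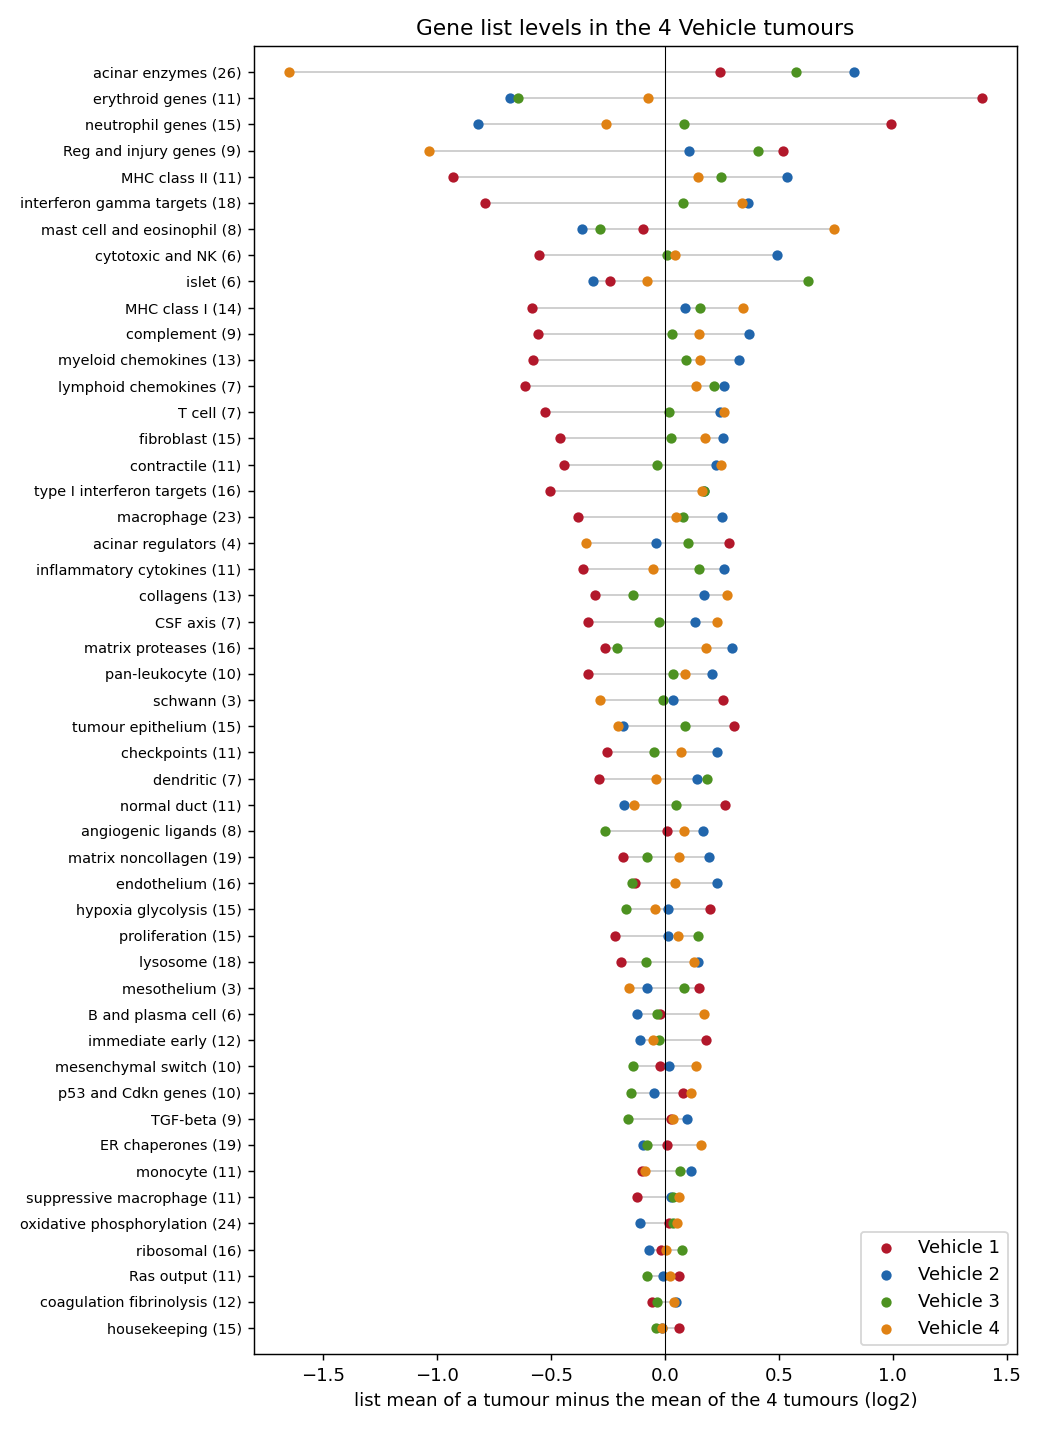
Mean of each gene list in each tumour minus the mean of the 4 tumours (horizontal axis, log2), with 1 row per list ordered by its range and the number of members detected in all 4 tumours in brackets. Points are tumours and grey lines span the lowest to the highest. Vehicle 4 lies far left for acinar enzymes and Reg genes, and Vehicle 1 far right for erythroid and neutrophil genes and left for MHC class II and interferon gamma targets.

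Digestive enzyme genes were detected in every tumour, and all but 1 were lowest in Vehicle 4. All 26 members with a named probe were detected in all 4 tumours, beside 45.1% of all named genes. The list mean was 11.45, 12.03, 11.78 and 9.56. The range exceeded 1 in 24 of 26 members, beside 9.35% of all genes, and 2 in 20 of 26, with a median member range of 2.73 beside 0.438 over all genes. Vehicle 4 was lowest in 25 of 26, beside 27.8% of all genes, and Vehicle 3 in 0, beside 19.8%. Without Vehicle 4 the range of the list mean was 0.59. On the brighter arrays alone, which include Vehicle 4 and the repeats of Vehicle 1 and 3, it was 2.24.

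Cpa1, the exopeptidase carboxypeptidase A1, was close to 12 in Vehicle 1, at 12.67 and 12.23 in Vehicle 2 and 3, and at 10.38 in Vehicle 4. Cela1, an elastase, was close to 11 in Vehicle 1, at 13.31 and 12.08 in Vehicle 2 and 3, and at 9.27 in Vehicle 4, so that its highest tumour was Vehicle 2 by 1.23. The chymotrypsin-like Ctrc varied most, with 7.64, 11.21, 9.28 and 6.08, a 35.0-fold range. Its relative Ctrl was at 10.88, 12.38, 11.37 and 8.60, and Pla2g1b, the pancreatic phospholipase, at 8.41, 10.41, 9.72 and 6.22. In all 5 the order of tumours was the same, Vehicle 2, 3, 1 and 4 from high to low. Over the 26 members the highest tumour varied more. It was Vehicle 2 in 14, beside 32.1% of all genes, Vehicle 3 in 6, beside 18.2%, Vehicle 1 in 5, beside 27.8%, and Vehicle 4 in 1, beside 22%. Prss3, a trypsinogen gene, had another order, at 6.70, 7.14, 8.82 and 5.50. The kallikrein gene Klk1b27 was at 10.52, 10.32, 9.22 and 6.98. Trypsinogen, kallikrein and amylase genes have close paralogs whose RNA may reach the same probe.

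Amy2a5 was the one enzyme gene in which Vehicle 4 was not lowest, and its 3 probes detected in all 4 tumours disagreed. The brightest had a range of 0.21, another read 13.46, 13.57, 12.75 and 11.85, and the last 10.51, 10.10, 9.40 and 8.43. On these other probes Vehicle 4 was the lowest, as for the other enzymes.

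The regulators specific to acinar cells were dim. Ptf1a, the acinar master regulator, was at 5.74, 6.82 and 6.49 in Vehicle 1 to 3 and below detection in Vehicle 4. Rbpjl, its partner in the PTF1 complex, was at 5.45, 7.19 and 7.23 in the same tumours and again below detection in Vehicle 4. The fold between the highest tumour and Vehicle 4 was at least 4.12 for Ptf1a and at least 5.47 for Rbpjl. Bhlha15, which sets up the secretory machinery, was at 5.72, 6.38, 6.36 and 5.66. Foxa3 was at 9.02, 7.69, 8.16 and 7.53, and Gata6 at 8.98, 8.62, 8.68 and 8.40.

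The promoter of Cpa1 is shown as an example of an enzyme gene, from RefSeq with the build GRCm38.p6, as the 250 bases before and the 50 after the annotated start. It lies at chr6:30638968-30639267 on the + strand. Capitals mark the letters TTTCCCA on either strand, the box of the PTF1 complex, here from 20 to 14 bases before the start.
Cpa1: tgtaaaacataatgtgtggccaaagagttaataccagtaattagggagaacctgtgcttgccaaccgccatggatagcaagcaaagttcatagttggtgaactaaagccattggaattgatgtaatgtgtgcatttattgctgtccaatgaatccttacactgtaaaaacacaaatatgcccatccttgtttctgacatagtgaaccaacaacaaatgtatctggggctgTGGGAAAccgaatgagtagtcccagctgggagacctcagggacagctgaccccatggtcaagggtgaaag
Of 20 enzyme genes with a promoter entry, 5 held these letters, beside 9.16% of all 27025 genes with a promoter of that length. The 5 were Cpa1, Cela2a, Ctrb1, Cel and Prss2. A match of letters is a description and not a binding site. Members with and without it, such as Cela2a at 13.20, 14.40, 14.22 and 12.03 and Cela1 above, were both lowest in Vehicle 4.

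Reg genes, which encode secreted lectins made by acinar cells in inflammation, followed the same split. Reg1 was at 13.83, 13.85, 13.91 and 12.48, Reg2 at 13.66, 13.26, 13.33 and 11.54, and Reg3a at 12.82, 12.09, 12.44 and 10.62. The widest member was Reg3d, with 9.89, 8.47, 8.88 and 7.01. In the list of Reg and injury genes, 7 of 9 detected members had a range over 1, beside 9.35% of all genes, and Vehicle 4 was lowest in 7, beside 27.8%. The range of the list mean was 1.55, no smaller on the brighter arrays alone, and 0.41 without Vehicle 4. The members that did not follow, Nupr1 at 12.19, 12.37, 11.98 and 12.26 and Vmp1 at 11.28, 11.24, 11.54 and 11.37, are stress genes that many cell types use. Vehicle 4 was lowest by over 1 in 43 of all 8599 genes. Among these were 23 of the 26 detected enzyme members and 6 of the 9 in the Reg and injury list. Both lists hold Spink1, a trypsin inhibitor. The plot of enzyme and Reg genes shows the separation gene by gene.

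**Figure D3:**
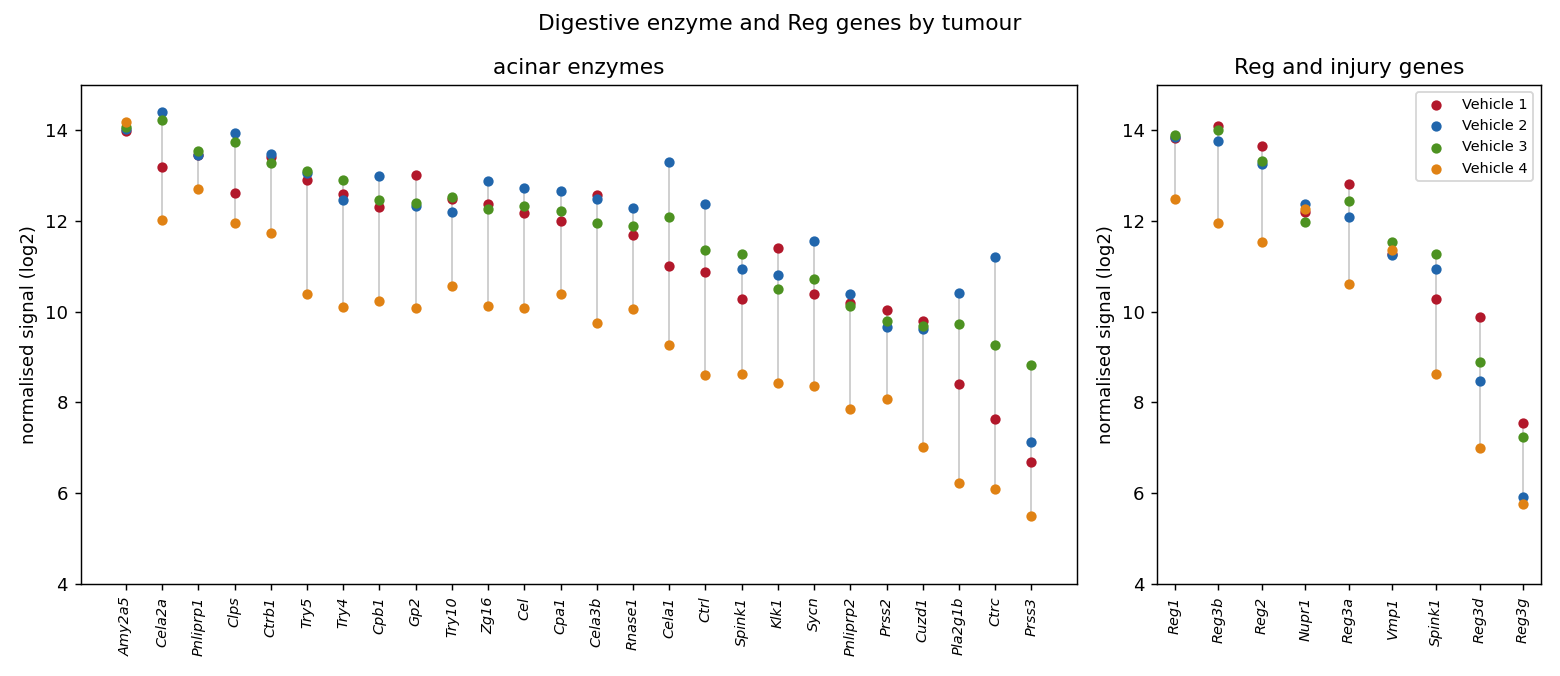
Normalised signal (vertical axis, log2) of the 26 acinar enzyme genes and the 9 Reg and injury genes detected in all 4 tumours, 1 column per gene ordered by mean. Points are the tumours and grey lines span the lowest to the highest. Vehicle 4 is the lowest point of all enzymes but Amy2a5, and of 7 of the 9 Reg and injury genes.

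Islet hormone genes had their own order. Ins2, insulin, was at 10.23, 11.96, 12.98 and 11.62, and Gcg, glucagon, at 8.39, 8.69, 9.45 and 9.15. Sst, somatostatin, was at 6.36, 5.98, 7.40 and 6.55. Vehicle 3 was highest for all 3 hormones and for 5 of the 6 islet members detected in all 4, beside 18.2% of all genes, and 4 of the 6 had a range over 1, beside 9.35%. Without Vehicle 3 the range of the list mean was 0.24, against 0.94 with it. Iapp, also secreted by beta cells, and the islet transcription factors Neurod1 and Pax6 were on no array. Pdx1 was even, at 7.77, 7.69, 7.52 and 7.58.

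Carcinoma markers were present in all 4 tumours, apart from some. Krt19, a duct and carcinoma keratin, was at 11.99, 11.45, 11.81 and 11.48, and Krt8 at 13.89, 13.29, 13.59 and 13.48. Tff2, a secreted trefoil peptide, was at 13.75, 13.19, 13.67 and 13.79, and Msln, mesothelin, at 9.71, 9.02, 9.45 and 9.38. The adhesion gene Epcam was on no array, so keratins and mucins, and not this marker, bear on the labelled tissue. Of 21 carcinoma markers with a probe, 15 were detected in all 4, beside 45.1% of all named genes. The list mean was 10.40, 9.91, 10.18 and 9.89, a range of 0.51, which was 0.29 without Vehicle 1. It was 0.39 on the brighter arrays alone, which leave out Vehicle 2. On the dimmer first arrays of Vehicle 1, 2 and 3 the list mean was 10.41, 9.91 and 10.18. Muc1, a membrane mucin, was the widest, at 11.51, 9.87, 10.86 and 9.96, and its other 3 detected probes had the same highest and lowest tumours. Vehicle 1 was highest in 9 of 15 members and Vehicle 2 lowest in 9, beside 27.8% and 24.2% of all genes.

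Mesenchymal genes were also detected, and their list mean had a range of 0.28. Vim, vimentin, was at 13.14, 13.52, 13.19 and 13.04, and Zeb1, a repressor of epithelial genes, at 8.42, 8.37, 8.08 and 8.60. Krt17, a basal keratin, was the widest of this list, at 6.07, 7.21, 6.14 and 7.64. Output genes of Ras signalling had a list mean range of 0.14, and 0 of 11 members passed a range of 1, beside 9.35% of all genes. Dusp6, a phosphatase induced by ERK, was at 11.75, 11.43, 11.37 and 11.22, and Ccnd1, cyclin D1, at 13.09, 13.48, 13.17 and 13.29. Cdkn2a, the tumour suppressor locus, was detected on all 6 arrays at 7.75, 6.98, 8.01 and 8.21. Trp53 had no named probe. Among proliferation genes, Top2a was at 8.95, 9.56, 9.38 and 9.62 and Cdk1 at 8.59, 9.10, 9.19 and 8.94, and Vehicle 1 was lowest in 11 of 15, beside 28.2% of all genes. The widest, Stmn1, a microtubule regulator, was at 6.38, 5.32, 5.94 and 6.94. Its repeat array of Vehicle 3 read 1.22 above the first, and tumour and array brightness were not separated for it.

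Several of the genes with the widest spread, among them genes known from mucus-making epithelia, were high in Vehicle 1 and low in Vehicle 2. Mucl3, a mucin-like gene, was at 11.47, 7.33, 9.19 and 8.05. Clca1, a secreted regulator of mucus, was at 10.57, 7.11, 7.62 and 8.41, with 2 probes of the same order. Ern2, an endoplasmic reticulum stress sensor of mucus cells, was at 9.01, 5.67, 8.00 and 6.15, and Gsta1, a glutathione transferase, at 9.44, 6.01, 9.10 and 7.55. Tff3, the goblet-cell trefoil peptide, was at 8.32 in Vehicle 1 and below detection in Vehicle 2, at least 11.3-fold apart. Pla2g10 was at least 7.72-fold higher in Vehicle 1 than in Vehicle 4, and Gsta2 at least 7.45-fold higher in Vehicle 1 than in Vehicle 2. Cyp2c65, a cytochrome P450, was at 7.67 in Vehicle 1 and undetected on the Vehicle 2 array, at least 7.19-fold apart, and its 3 other named probes were also highest in Vehicle 1. Gkn2, a gastrokine named after its values were seen, was at 11.47, 8.93, 12.07 and 10.32. All these genes were picked by their spread and are not a list drawn up for a cell type.

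The widest gene that was on in some tumours and off in others divided them differently. Csrp1, a LIM-domain protein of smooth muscle and fibroblasts, was at 8.62 and 8.92 in Vehicle 1 and 3, and at the undetected values of 4.33 and 4.55 in Vehicle 2 and 4. Vehicle 3 was at least 17.7-fold above Vehicle 4. Csrp1 has 1 named probe on the array. The list mean of contractile genes was 7.93, 8.60, 8.34 and 8.62, with Vehicle 2 and 4 the higher.

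Most fibroblast genes were detected in all 4 tumours, and their list mean was lowest in Vehicle 1. The fibroblast list mean was 7.44, 8.15, 7.93 and 8.08, with a range over 1 in 7 of 15 members and Vehicle 1 lowest in 12, beside 9.35% and 28.2% of all genes. Pdgfra, the receptor that marks fibroblasts, was at 7.46, 8.14, 7.81 and 7.87, and Dcn, decorin, at 10.74, 11.41, 11.19 and 11.04. Pi16, a marker of adventitial fibroblasts, was the widest, at 6.94, 9.04, 8.81 and 8.23. Fap, the activated fibroblast protease, was dim and even, at 5.25, 4.99, 5.36 and 5.29. Pdpn was at 9.29, 10.58, 10.18 and 10.26, and Ccl11, a chemokine for eosinophils, at 6.19, 7.50, 7.24 and 7.82. Without Vehicle 1 the range of the fibroblast mean was 0.20.

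Acta2, alpha smooth muscle actin, was at 11.55, 12.38, 12.02 and 12.45, and its 3 other detected probes were also lowest in Vehicle 1. Rgs5, a pericyte gene, was the widest contractile member, at 6.95, 8.61, 8.10 and 7.48. Collagen I was at 9.20, 10.76, 9.60 and 10.87 for Col1a1. Col3a1 differed in another way, with 6.42, 6.33, 6.45 and 7.83. The repeats of Vehicle 1 and 3 read 0.31 and 0.84 above their first arrays for Col3a1, and tumour and array brightness were not separated for it. Fbln1, a matrix glycoprotein, was at 9.16, 10.50, 10.13 and 10.25 and Sparc at 12.42, 12.94, 12.50 and 12.82. Postn, periostin, was on no array. The proteases Mmp2, at 11.62, 12.51, 11.73 and 12.43, and Mmp9, at 10.27, 11.10, 10.40 and 11.17, were each higher in Vehicle 2 and 4 than in 1 and 3. Mmp3, stromelysin 1, was at 5.75, 7.43, 6.10 and 6.31.

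Of the endothelial genes, 0 of 16 members had a range over 1, beside 9.35% of all genes, and Vehicle 2 was highest in 11 of 16, beside 32.1%. The list mean had a range of 0.37, and of 0.19 without Vehicle 2. Pecam1 was at 7.33, 7.80, 7.40 and 7.48 and Cdh5, VE-cadherin, at 7.70, 7.97, 7.51 and 7.54. Vegfa, the growth factor of vessels, was at 9.94, 9.39, 9.32 and 9.38 on its brighter detected probe. Another detected Vegfa probe read 9.19, 9.46, 8.89 and 8.92, with Vehicle 2 highest. Several markers of fat and striated muscle were not detected. Adipoq, Plin1 and Fabp4 of adipocytes and Acta1, Ckm and Myh4 of muscle were on no array, and 7 of 11 adipocyte and 7 of 12 muscle genes with a probe were on none, beside 37.6% of all named genes.

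Macrophage genes were present throughout, and most had their lowest value in Vehicle 1. Of 25 macrophage genes with a probe, 23 were detected in all 4, beside 45.1% of all named genes, and 2 in part. The list mean was 8.66, 9.29, 9.12 and 9.09. Vehicle 1 was lowest in 16 of 23 and 8 had a range over 1, beside 28.2% and 9.35% of all genes. The list mean had a range of 0.63, and of 0.20 without Vehicle 1. Csf1r, the receptor on which macrophages depend, was at 7.13, 7.42, 7.44 and 7.84, and Adgre1, which encodes F4/80, at 6.22, 5.85, 6.48 and 6.91. Another detected probe of each had other extremes, with 5.96, 7.08, 6.40 and 6.38 for Csf1r and 5.73, 5.93, 6.40 and 6.47 for Adgre1. On the brighter probes, repeats differed by 0.63 for Csf1r in Vehicle 1 and by 0.84 for Adgre1 in Vehicle 3. The complement gene C1qa, a marker of resident macrophages, was at 9.34 in Vehicle 1, 10.29 in Vehicle 2 and 10.09 in Vehicle 4, and close to 10 in Vehicle 3. Aif1, an actin-binding protein of macrophages, was the widest, at 7.68, 9.32, 9.46 and 9.17, with a second probe of the same lowest tumour. Lyz2, lysozyme, was at 11.29, 12.73, 12.20 and 12.13. Mrc1, the mannose receptor, did not follow, at 9.36, 9.20, 9.35 and 8.98. Csf1, a ligand of Csf1r, was at 5.74, 6.56, 6.50 and 6.99, and Il34, the other ligand, at 7.74, 8.06, 7.73 and 7.98.

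Genes that mark suppressive or wound-type macrophages did not move as a block. Arg1, arginase 1, was at 10.38, 11.20, 10.47 and 10.71. Mgl2, a lectin, was at 6.64, 8.86, 8.82 and 8.41, and Cd274, the ligand PD-L1, at 8.16, 10.20, 9.24 and 9.66. Chil3, a chitinase-like protein of macrophages and neutrophil precursors, was highest in Vehicle 1 and lowest in Vehicle 2, at 10.29, 6.58, 8.04 and 7.79. The list mean had a range of 0.18, while 3 of its 11 members had a range over 2, beside 1.29% of all genes. Chil4, a close paralog that probes may not separate from Chil3, was at 10.45, 6.72, 8.46 and 7.88. Ptprc, the pan-leukocyte gene for CD45, and the monocyte receptor Ccr2 were on no array, whereas Laptm5 of all leukocytes was at 11.80, 12.41, 12.07 and 12.52.

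Neutrophil genes were highest in Vehicle 1 and lowest in Vehicle 2. The list mean was 9.19, 7.38, 8.29 and 7.94. A range over 1 was found in 12 of 15 detected members, beside 9.35% of all genes, and over 2 in 9, and the median member range was 2.55. Vehicle 1 was highest and Vehicle 2 lowest in 11 members each, beside 27.8% and 24.2%. S100a8, a subunit of the calprotectin complex, was at 12.89, 10.09, 12.01 and 11.36, and its partner S100a9 at 11.61, 7.92, 10.50 and 9.77. Mpo, the myeloperoxidase of primary granules, was at 10.45, 6.96, 8.26 and 7.65, with a second probe of the same highest and lowest tumour. The elastase gene Elane was at 8.22, 5.38, 6.10 and 6.05, and Ctsg, cathepsin G, at 7.48, 4.99, 5.99 and 5.02. The secondary granule genes Ltf, at 10.88, 8.33, 10.15 and 9.30, and Camp, at 10.44, 7.24, 9.49 and 8.35, had the same extremes.

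Not every gene of the list took part. Mmp9, Lcn2, Chil1 and Trem1, which other cells also express, were not highest in Vehicle 1. The receptors of circulating neutrophils were dim: Csf3r was detected on 5 of 6 arrays and Cxcr2 on 1. Without Vehicle 1 the range of the list mean was 0.91. On dimmer arrays alone, where Vehicle 2 stands beside the first arrays of Vehicle 1 and 3, it was 1.80.

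Red cell genes were also highest in Vehicle 1. The list mean was 9.41, 7.34, 7.38 and 7.95, Vehicle 1 was highest in 10 of 11 detected members, beside 27.8% of all genes, and 10 of 11 had a range over 1, beside 9.35%. Slc4a1, the band 3 anion exchanger, had the widest range of all 8599 genes, at 11.48, 5.40, 7.19 and 8.60. Alas2, the first enzyme of erythroid haem synthesis, was at 10.30, 6.63, 6.04 and 7.04, and the globin Hbb-b2 at 10.04, 5.70, 6.39 and 7.76. The brighter globin probes Hba-a1, at 14.17, 12.86, 12.20 and 13.47, and Hbb-bt, at 14.03, 12.85, 12.40 and 12.98, differed less, and globin copies share sequence. Klf1, the erythroid transcription factor, was at 7.38, 5.21, 5.18 and 5.34. Sptb, erythrocyte beta spectrin, was at 7.78 in Vehicle 1 and below detection in Vehicle 2 and 3, at least 7.92-fold above Vehicle 3, and its other 4 named probes were on 0 or 1 array. Without Vehicle 1 the range of the list mean was 0.61. Platelet genes were dim, with 1 of 12 genes with a probe detected in all 4, beside 45.1% of all named genes. It was Pf4, at 6.61, 5.58, 6.15 and 6.69.

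The neutrophil and erythroid lists were thus highest in the tumour in which the fibroblast, macrophage and interferon lists were lowest. The mice were perfused, and how much marrow-derived or circulating cells contributed was not tested. Vehicle 1 stood highest by over 1 in 51 of all 8599 genes. Among these were 7 of the 15 detected neutrophil members and 6 of the 11 erythroid members. The plot of neutrophil and erythroid genes gives each member.

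**Figure D4:**
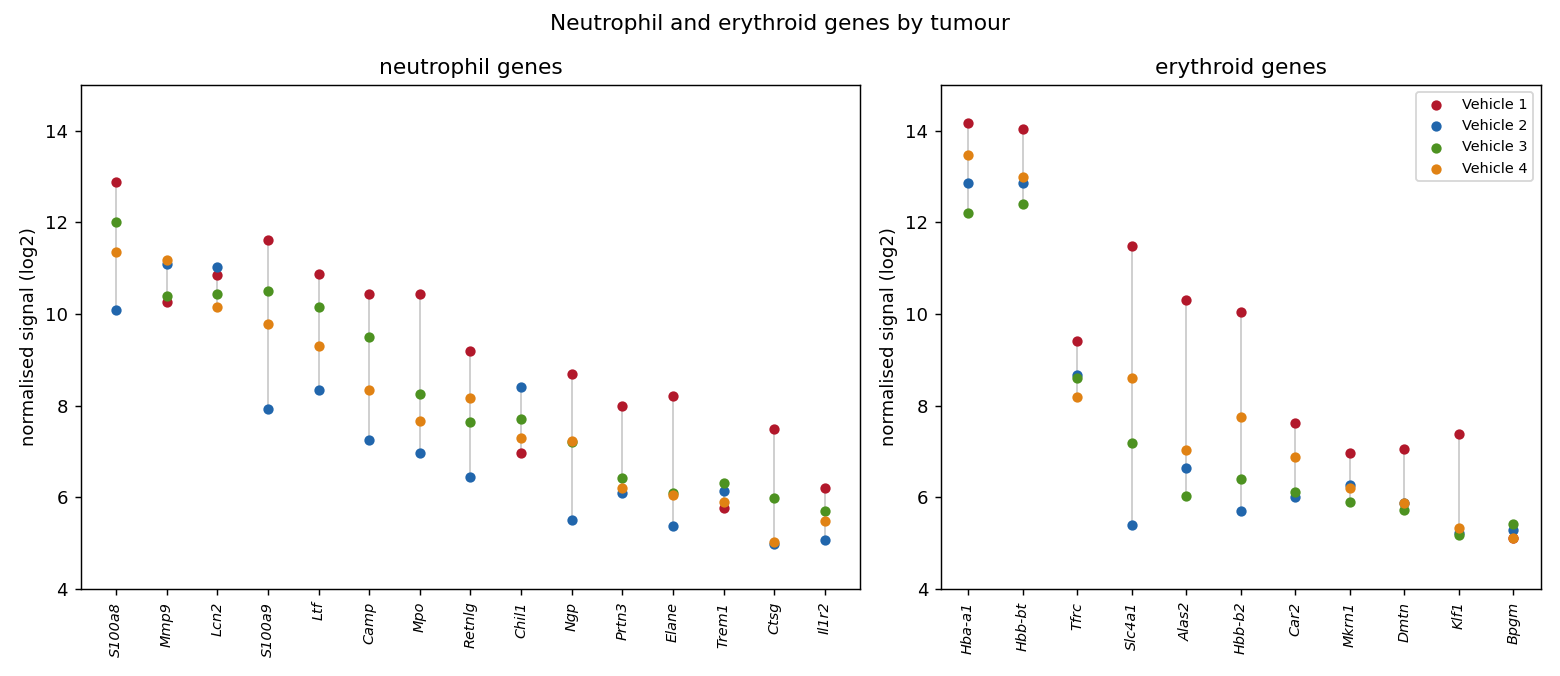
Normalised signal (vertical axis, log2) of the 15 neutrophil and 11 erythroid genes detected in all 4 tumours, 1 column per gene ordered by mean. Points are the tumours and grey lines span the lowest to the highest. Vehicle 1 is the highest point of 11 neutrophil and 10 erythroid genes.

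Mast cell and eosinophil genes were highest in Vehicle 4. The list mean was 6.75, 6.48, 6.56 and 7.59, with Vehicle 4 highest in 6 of 8 detected members, beside 22% of all genes, and 5 of 8 had a range over 1, beside 9.35%. Cpa3, the mast cell carboxypeptidase, was at 6.28, 5.45, 5.95 and 7.55, and the tryptase gene Tpsb2 at 6.40, 5.75, 5.43 and 7.61. Another tryptase, Tpsab1, was at 9.21, 8.01 and 8.27 in Vehicle 1 to 3 and close to 10 in Vehicle 4, and the chymase Cma1 at 5.94, 5.76, 6.16 and 7.23. Kit, the stem cell factor receptor, was not highest there, at 6.59, 7.15, 6.31 and 6.72. Prg2, the major basic protein of eosinophils, was at 8.17 in Vehicle 1 and 6.76 in Vehicle 4 and below detection in Vehicle 2, at least 10.1-fold under Vehicle 1. Ear3, an eosinophil ribonuclease with close paralogs, was also highest in Vehicle 1, at least 6.82-fold above Vehicle 2. Without Vehicle 4 the range of the list mean was 0.27, and on the brighter arrays alone it was 0.97. Most of these probes lie near the dim end of the scale, where the offset shortens differences.

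Interferon gamma targets were lowest in Vehicle 1 and close to each other in the other 3 tumours. The list mean was 9.19, 10.35, 10.06 and 10.32, Vehicle 1 was lowest in 16 of 18 detected members, beside 28.2% of all genes, and 14 had a range over 1, beside 9.35%. Irf1, the transcription factor induced first, was at 11.17, 12.27, 11.59 and 12.06. The guanylate-binding protein genes Gbp2 and Gbp3 were at 12.11, 13.53, 13.30 and 13.28 and at 9.33, 11.01, 10.76 and 10.94. Nlrc5, the activator of MHC class I genes, was the widest, at 6.44, 8.51, 8.01 and 8.06. Igtp, an immunity-related GTPase, was at 10.89, 12.84, 12.15 and 12.56, and Psmb8 of the immunoproteasome at 10.61, 11.98, 11.82 and 11.84. The 2 exceptions were Ifngr1, the receptor, at 9.75, 9.17, 9.50 and 9.24, and Jak2, its kinase, at 9.81, 9.76, 9.76 and 9.55. Without Vehicle 1 the range of the list mean was 0.29.

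Promoters of 3 genes that were low in Vehicle 1 are shown for the letters interferon factors bind. They come from RefSeq on GRCm38.p6, at chr3:142620413-142620712 on the + strand for Gbp2, chr11:58199306-58199605 on the + strand for Igtp and chr5:92348840-92349139 on the - strand for Cxcl10. Capitals mark, on either strand, the core of the interferon-stimulated response element, which is GAAA, any 2 bases and GAAA, and the gamma-activated site, TTCNNNGAA.
Gbp2: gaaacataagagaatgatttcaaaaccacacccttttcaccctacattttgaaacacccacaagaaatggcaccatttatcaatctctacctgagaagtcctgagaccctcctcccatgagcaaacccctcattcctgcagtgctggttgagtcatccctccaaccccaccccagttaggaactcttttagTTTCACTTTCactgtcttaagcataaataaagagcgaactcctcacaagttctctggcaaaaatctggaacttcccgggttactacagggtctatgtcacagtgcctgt
Igtp: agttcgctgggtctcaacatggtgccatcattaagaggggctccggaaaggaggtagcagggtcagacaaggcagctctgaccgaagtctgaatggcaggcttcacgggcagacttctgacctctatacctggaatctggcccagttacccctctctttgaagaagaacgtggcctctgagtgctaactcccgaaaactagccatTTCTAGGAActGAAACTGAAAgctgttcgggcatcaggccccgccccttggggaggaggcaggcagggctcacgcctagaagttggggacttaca
Cxcl10: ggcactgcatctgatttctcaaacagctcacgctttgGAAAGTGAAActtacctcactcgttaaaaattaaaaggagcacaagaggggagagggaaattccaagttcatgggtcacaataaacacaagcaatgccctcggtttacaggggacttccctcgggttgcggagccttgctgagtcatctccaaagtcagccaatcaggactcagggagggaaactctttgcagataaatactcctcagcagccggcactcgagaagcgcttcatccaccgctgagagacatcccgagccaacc
In Gbp2 the match ran from 59 to 50 bases before the start, in Igtp the response element from 34 to 25 and the gamma-activated site from 45 to 37, and in Cxcl10 from 213 to 204.

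Across the interferon gamma list, 8 of 15 members with a promoter entry (53.3%) held the response element core. Over all 27025 genes with a promoter of this length the share was 3.99%. The 8 members were Gbp2, Gbp3, Gbp5, Gbp7, Irgm1, Irgm2, Igtp and Tgtp1. All 8 were lowest in Vehicle 1, beside 16 of all 18 detected members of the list. Irf1 and Psmb8, without the core in this window, were lowest there too. The gamma-activated site was held by 7 of 15 (46.7%), beside 9.55% of all. In MHC class II genes each motif was in 1 of 8 promoters, which says only that these letters are not in the other windows.

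The T cell chemokines named next were also lowest in Vehicle 1. Cxcl9 was at 10.62, 12.54, 12.15 and 11.90 and Cxcl10 at 6.63, 9.02, 8.79 and 8.70, and both bind the receptor Cxcr3, which was on 1 of 6 arrays. Ccl5, another T cell chemokine, was at 7.37, 8.43, 8.19 and 8.15. The range of the lymphoid chemokine mean was 0.87, and 0.14 without Vehicle 1. Cxcl13, which attracts B cells, was highest in Vehicle 1, at 6.50, 5.57, 5.53 and 5.44. Among chemokines for myeloid cells, Ccl7 was at 6.40, 8.21, 8.22 and 8.16, Ccl8 at 8.90, 10.79, 10.86 and 10.43 and Cxcl1 at 6.79, 7.87, 7.72 and 7.77. Ccl2, the ligand of Ccr2, was dim, at 4.94, 5.39, 5.13 and 5.45. Vehicle 1 was lowest by over 1 in 67 of all 8599 genes. Among these were 8 of 18 detected interferon gamma targets, 5 of 11 MHC class II genes and 3 of 14 MHC class I genes. There were also 3 of 13 detected members of the myeloid chemokine list and 3 of 7 of the lymphoid one.

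Type I interferon targets were lowest in Vehicle 1 in 13 of 16 detected members, beside 28.2% of all genes. Isg15, a ubiquitin-like protein, was at 7.23, 8.80, 8.59 and 8.83, Ifit3 at 6.81, 9.04, 8.56 and 8.59, and Usp18 at 7.30, 8.12, 7.98 and 7.92. Rsad2, the antiviral protein viperin, went the other way, at 8.40, 5.92, 5.95 and 6.26, and it had the widest range of the list. Oasl1 was likewise not lowest in Vehicle 1, at 8.24, 7.58, 8.05 and 8.21. Without Vehicle 1 the range of the list mean was 0.00407.

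MHC class II genes were lowest in Vehicle 1 in 9 of 11 detected members, beside 28.2% of all genes, and 7 of 11 had a range over 1, beside 9.35%. The list mean was 8.70, 10.17, 9.88 and 9.77. It includes H2-Eb1, described below, whose range of 5.33 was far above the median member range of 1.41 and widens that of the mean. Ciita, the activator of the class II genes, was at 6.59, 8.62, 8.15 and 8.16, and Cd74, the invariant chain, at 12.56, 13.97, 13.41 and 13.69. H2-DMa and H2-DMb1, which load peptides, were at 9.41, 11.35, 10.91 and 10.95 and at 9.86, 11.15, 11.10 and 11.15. H2-Ab1, a beta chain, was at 11.17, 11.97, 11.93 and 12.73. Without Vehicle 1 the range of the list mean was 0.46, and on the dimmer arrays alone it was 1.53.

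Some MHC probes split the tumours into Vehicle 2 and 3 against Vehicle 1 and 4. H2-Eb1, a class II beta chain, was at 6.10, 11.43, 10.89 and 7.92, the second widest range of all genes. The class I genes H2-Q6, at 5.87, 9.80, 9.16 and 7.16, and H2-Q5, at 7.61, 10.96, 10.66 and 8.70, had that order too. Of the 2 detected H2-K1 probes, one read 6.32, 9.94, 9.33 and 7.17 and the brighter one 9.73, 9.67, 10.31 and 11.18, so the probes of this gene disagreed. On the brighter H2-K1 probe, the repeats of Vehicle 1 and 3 each read 0.70 above their first arrays. H2-D1 had a range of 0.53 on its brightest probe, at 13.66, 14.20, 13.97 and 14.15. Its dimmest detected probe read 8.64, 8.88, 8.96 and 9.68. B2m, the shared light chain, was at 13.33, 13.66, 13.58 and 13.77. H2-Aa, a class II alpha chain, was at 6.38 in Vehicle 4 and was detected on 3 of 6 arrays, that of Vehicle 4 and 1 each of Vehicle 1 and 3. The repeats of Vehicle 1 and 3 read 1.06 and 1.33 above their first arrays for this probe, so that its difference between tumours cannot be told apart from array brightness. Class I genes are near-identical copies, and these probes may not separate them.

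**Figure D5:**
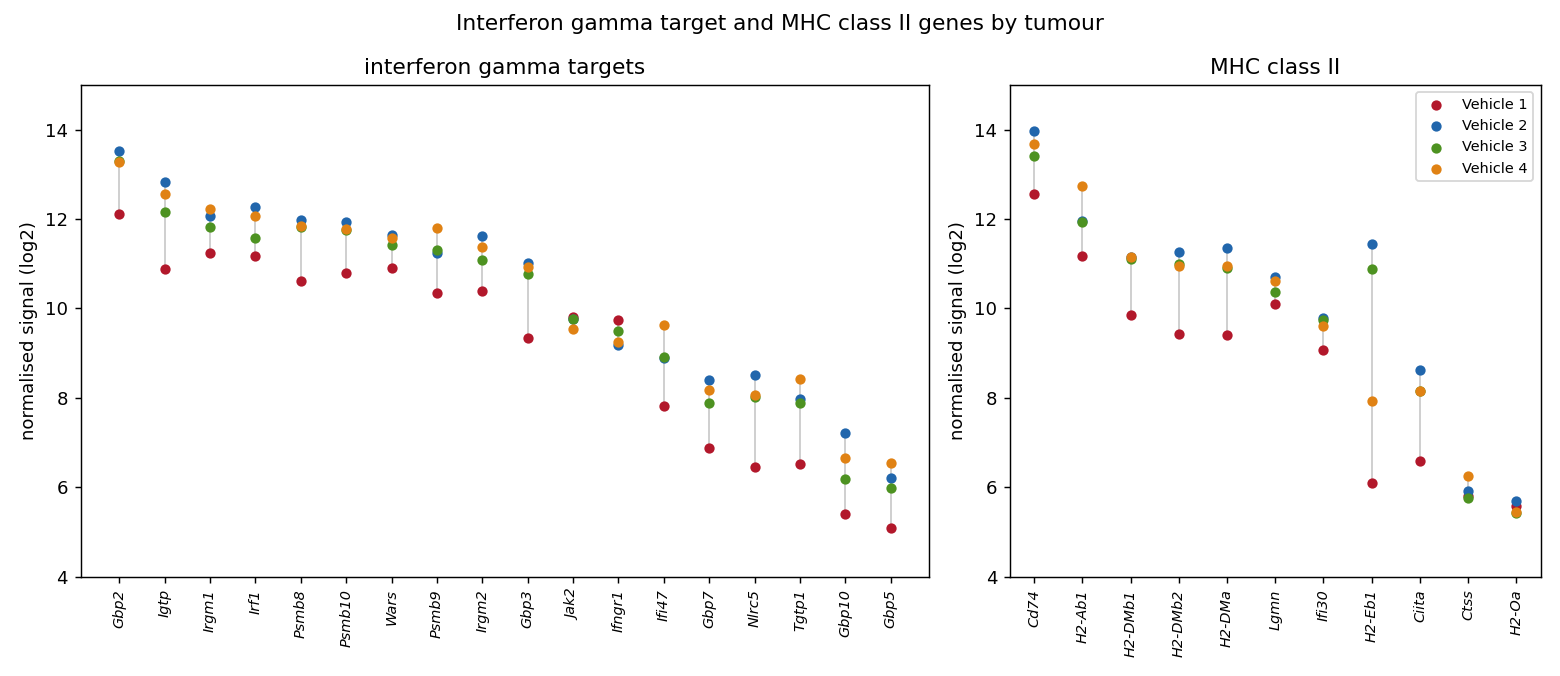
Normalised signal (vertical axis, log2) of the 18 interferon gamma target and 11 MHC class II genes detected in all 4 tumours, 1 column per gene ordered by mean. Points are the tumours and grey lines span the lowest to the highest. Vehicle 1 is the lowest point of 16 interferon gamma targets and 9 MHC class II genes, and H2-Eb1 has the longest line.

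Of 17 T cell genes with a probe, 7 were detected in all 4 tumours, beside 45.1% of all named genes. The range of the list mean was 0.78, and 0.19 without Vehicle 1. The T cell receptor subunits Cd3e, at 6.18, 7.29, 6.87 and 7.60, Cd3g, at 6.14, 7.51, 6.90 and 7.61, and Cd3d, at 6.59, 7.90, 7.64 and 7.55, were lowest in Vehicle 1. Cd8a was on no array and Cd4 on 2. Cd8b1 and the brighter Foxp3 probe were bright and even instead, at 10.98, 10.99, 11.14 and 10.89 and at 9.05, 8.93, 9.08 and 9.11, and did not share the order of the Cd3 genes. The other detected Foxp3 probe was dim, at 5.04, 5.25, 5.31 and 5.08. Neither gene is therefore read here as a count of those cells.

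Cytotoxic genes were highest in Vehicle 2 in 6 of 6 detected members, beside 32.1% of all genes, with a list mean of 6.22, 7.27, 6.78 and 6.82. Its range was 0.42 without Vehicle 1, 0.93 on the dimmer arrays alone and 0.59 on the brighter ones, against 1.05 over all. Prf1, perforin, was at 6.22, 7.46, 6.81 and 6.64, Nkg7 at 7.05, 8.22, 7.94 and 7.97, and Klrd1, a natural killer receptor, at 5.04, 6.45, 5.70 and 5.95. Ifng, interferon gamma itself, was close to the limit of detection, at 4.88, 5.96, 5.08 and 5.55. Gzmb, the granzyme of killer cells, was on no array. Gzmd, another granzyme named after its values were seen, was at 7.16, 8.27, 6.22 and 6.89. Among B lineage genes Ms4a1 and Pax5 were on no array, and Cd79b was at 6.19, 6.18, 5.98 and 6.81. Mzb1, of plasma and marginal zone B cells, was at 9.68, 9.56, 9.64 and 10.58. Of 16 dendritic cell genes with a probe, 7 were detected in all 4 tumours, beside 45.1% of all named genes. Another 6 were on no array, beside 37.6%, among them Itgax, Xcr1 and Clec9a.

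Genes of the sex chromosomes were read as a check on the labels. Xist, the RNA of the inactive X chromosome, was detected on all 6 arrays at 5.89, 6.86, 6.68 and 6.03. The Y-linked genes Kdm5d and Uty were each detected on 3 of 6 arrays with levels of at most 5.18, and Eif2s3y was on none. The hosts were female and the sex of the implanted cells is not stated in the labels.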

How the data were processed

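Whole-tumour RNA was measured on Illumina BeadArrays. Per the file headers, the authors deposited for each probe a non-normalized intensity, which is already background-subtracted because it falls below 0, and a detection p-value. The deposited value table holds the authors' processed intensity, equal to the former times 1 factor per array. For scanner software and genome build nothing is given in the sources used here.

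The intensities of all 12 arrays were processed with neqc of limma 3.58.1 in R 4.3.3 (background modelled from detection p-values, offset 16, quantile normalization, log2). The 6 Vehicle arrays were then kept and repeat arrays averaged per tumour. A gene counted as detected in a tumour if all arrays of that tumour gave a detection p-value below 0.05, and was represented by its probe detected in most tumours, then by the highest mean. Where a tumour was undetected, a fold is a lower bound: the mean of the tumour over whichever is higher per array, the dim probe's own value or the lowest signal of any detected probe. The steps were tested on simulated data. Of the probes, 34885 had 1 gene symbol, 18 several and 10378 none, and 34807 matched RefSeq with 0 symbols changed.

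Members and lists were chosen with earlier results of these data known, and 57 members stand in more than 1 list. Named genes are the 20 brightest, the 20 of widest range, the 10 largest bounds, the 10 steadiest, and in each list the first 3 members and the widest. Other names were chosen after their values were seen. Alternatives covered background, scaling, detection threshold, probe choice, array choice and leaving out each tumour, with detection taken anew. The number of arrays limits the precision.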

Additional observations from a re-analysis of the deposited data

Results flagged for a closer look

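In a group of 4 tumours, a result was looked at again when the gap from the extreme tumour to its nearest neighbour, as a share of the whole range (Dixon's ratio), exceeded its 95% critical value. Of 235 list means and named genes, 14 passed, and chance alone marks about 1 in 20, so no weight is put on single genes.

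Vehicle 1 stood apart in 10 of them. Its list means were low for type I interferon targets (ratio 0.985, range 0.68) and lymphoid chemokines (0.863, range 0.87). It was low for Ccl7 (0.966), Cxcl10 (0.866), Cxcl1 (0.863), Isg15 (0.851), Aif1 (0.838) and Rps19 (0.853, with a range of 0.34), and high for Vegfa (0.879, range 0.62) and Rsad2 (0.865, range 2.47). The other detected Vegfa probe was highest in Vehicle 2, so the Vegfa flag holds for its brighter probe only. Vehicle 4 stood apart in the other 4, low for Reg1 (0.944, range 1.43) and Eef1a1 (0.879, range 0.11) and high for Col3a1 (0.919) and Mt1 (0.893, range 0.27). For Col3a1, tumour and array brightness were not separated.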

How the results depend on the processing

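The count of genes with a range over 1 moved with the processing: it was 804 as reported, 369 with normexp background and an offset of 50, 1443 with the authors' processed values, 1793 with median scaling in place of quantile normalization, 494 on the brighter arrays only (an alternative added after seeing the data), and 362 to 757 without 1 tumour, lowest without Vehicle 1 (455 without Vehicle 2). Under median scaling, repeat arrays differed by a median of 0.574 against 0.140 as reported, and the median range of a list mean was 0.79 against 0.54. For the mast cell and eosinophil list the range was 1.68 under median scaling. On the dimmer arrays only, which leave out Vehicle 4, ranges were 0.35 for the mast cell and eosinophil list, 0.62 for acinar enzymes and 0.37 for Reg and injury genes. Fewer tumours can only narrow a range over the same members. Without 1 tumour, 8657 to 8810 genes were detected, the median SD was 0.177 to 0.199, the repeat difference 0.128 to 0.159 and the median list range 0.26 to 0.49, lowest without Vehicle 1. List ranges were then 0.59 to 2.48 for acinar enzymes, 0.41 to 1.55 for Reg and injury genes and 0.27 to 1.11 for the mast cell and eosinophil list, each lowest without Vehicle 4. They were 0.61 to 2.07 for erythroid genes, 0.91 to 1.81 for neutrophil genes, 0.46 to 1.53 for MHC class II and 0.29 to 1.15 for interferon gamma targets, each lowest without Vehicle 1. Of the other list ranges, 369 of 419 under other settings moved by less than the SD between tumours; without 1 tumour, 35 of 168 moved by more, among them lymphoid chemokines (0.14, from 0.87). Under other settings, named genes' mean levels moved by less than the SD between tumours in 1683 of 1860 cases and by more in 177. No paired analysis was possible because there is 1 group and no test. The causes were not tested. Signal over background limits the dim genes, whose differences the offset shortens.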

Other observations

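Genes of the secretory stress response and of complement were also read in the 4 tumours. Herpud1, which helps remove misfolded proteins, was at 12.14, 11.63, 11.55 and 11.50 in Vehicle 1, 2, 3 and 4, and Ddit3, a stress transcription factor, at 8.29, 9.03, 8.65 and 9.12. Of 19 endoplasmic reticulum chaperone and stress genes detected in all 4 tumours, 1 had a range over 1, beside 9.35% of all genes. It was Dnajb9, at 8.73, 7.68, 7.80 and 8.13. Complement genes were highest in Vehicle 2 in 8 of 9 detected members, beside 32.1% of all genes. C4b was at 9.51, 10.70, 10.34 and 10.42, Cfp, properdin, at 10.08, 11.40, 10.96 and 11.08, and Serping1, the C1 inhibitor, at 11.16, 12.15, 11.49 and 11.69. Cfb, factor B, was the exception, at 6.37, 6.30, 6.71 and 7.64.

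Vehicle 2 and 4, each read on a single array, differed by over 1 in 250 genes. Of these, 147 were higher in Vehicle 4 than in Vehicle 2, and in 114 of the 147 both repeat arrays were also above the first arrays of their tumour, as they were for 23.9% of all genes. Of the 103 genes higher in Vehicle 2, both repeats were below in 39, beside 35.2% of all. Vehicle 4 was read on a brighter and Vehicle 2 on a dimmer array, and tumour and array brightness were not separated gene by gene here. For some lists, means were also read on arrays of like brightness, as given above. The acinar enzyme list, lowest in Vehicle 4, had a range of 2.24 on the brighter arrays alone. The neutrophil list, lowest in Vehicle 2, had a range of 1.80 on the dimmer arrays alone.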
